A study of Mus musculus with 17 samples.

Results

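Tight junctions seal the space between neighbouring epithelial cells, and claudins are the membrane proteins that build their strands. Some claudins seal the junction and others form pores through it: Cldn2 and Cldn15 form paracellular pores for cations and water, while Cldn3, Cldn4, Cldn7 and Cldn8 are usually described as sealing claudins of the gut. Ocln (occludin) and F11r (junctional adhesion molecule A) are other membrane proteins of the junction, and Tjp1 (zonula occludens protein) is the cytoplasmic scaffold that ties the strands to actin. These 9 genes and Cldn23, a claudin found in differentiated surface colonocytes, are the 10 genes described here, chosen by name on the array. Each was measured by 1 probe, the probe of that gene with the highest mean value in the authors' table of log2 values. The 10 genes were among 25029 gene or transcript names tested, and all 10 probes were well above the background on all 17 arrays.

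The arrays hold RNA of whole colon from male C57Bl6/J mice. WT mice were bought from a supplier at 6 weeks of age, whereas Pxr-/- mice, which lack the nuclear receptor PXR and had been backcrossed to the C57Bl/6J background, were bred in the study's own facility, so genotype and origin cannot be told apart. The age of the Pxr-/- mice is not given, so whether the genotypes were matched for age is not known. After 2 weeks of acclimatization, mice of each genotype received a daily intraperitoneal injection for 4 days and were killed 6 h after the last one. The injection held pregnenolone 16α-carbonitrile (PCN), a ligand of mouse PXR, at 100 mg/kg in corn oil (PCN), or corn oil alone (CONT). The labels put 4 arrays in WT CONT, 4 in WT PCN, 5 in Pxr-/- CONT and 4 in Pxr-/- PCN, and the comparisons asked whether PCN changed these genes in either genotype, whether the genotypes differed, and whether the effect of PCN differed between them. Values are log2 signals of a probe after quantile normalization. Since probes differ in how well they bind, a level of one gene is never set against that of another. RNA of a whole tissue does not tell fewer cells of a type from less RNA per cell.

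Several arrays stood apart in ways that the labels do not give. WT PCN replicate 4 and Pxr-/- PCN replicate 2 differed with a standard deviation of 0.172 over all probes, and WT PCN replicate 3 and Pxr-/- CONT replicate 2 with one of 0.198, whereas the other 134 pairs of arrays lay between 0.297 and 0.616. The differences that the text turns on are therefore also given without these 4 near-identical arrays, which leaves 13. The Nr1i2 probe, for the gene of PXR, read 11.97 to 12.31 in WT CONT, 11.10 to 12.44 in WT PCN, 10.39 to 11.61 in Pxr-/- CONT and 10.95 to 11.93 in Pxr-/- PCN. Whether this probe lies in the deleted part is not given in the sources used here, so it does not check the labels. The mean of 7 epithelial markers was 15.53 to 15.86 on all arrays, while the mean of 8 pancreatic transcripts was 11.48 to 17.66 on 4 arrays (WT CONT 4, WT PCN 1, WT PCN 3 and Pxr-/- CONT 2) and 6.65 to 7.06 on the others. The mean of 8 liver transcripts was highest in WT CONT 5 (11.38), WT PCN 1 (9.31) and WT PCN 2 (9.04).

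The sequence shown first is that of the second Cldn2 probe, because the largest difference relative to its error below was read by both Cldn2 probes, and the other is that of the Cldn4 probe, because Cldn4 varied most between arrays. Both are given as the array files list them, and no letters are in capitals because the whole 60-base probe binds the transcript. In build mm9 the Cldn2 probe lies at chrX:136343432-136343491 on the plus strand, 1812 bases from the first Cldn2 probe at chrX:136345244-136345303, and both are annotated to transcript NM_016675. The Cldn4 probe lies at chr5:135422135-135422194 on the minus strand (NM_009903). Of the other probes that the results turn on, that of Cldn15 lies at chr5:137451465-137451524 on the plus strand (NM_021719), that of Cldn8 at chr16:88561135-88561194 on the minus strand (NM_018778), the first of Tjp1 at chr7:72441126-72441185 on the minus strand (NM_009386) and that of F11r at chr1:173393848-173393907 on the plus strand (NM_172647).
Cldn2, second probe: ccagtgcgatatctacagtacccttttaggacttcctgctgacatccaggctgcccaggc
Cldn4: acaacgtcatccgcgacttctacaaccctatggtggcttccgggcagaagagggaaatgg

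PCN did not change any of the 10 genes in WT mice under the rule used for a call, which asked for a fold change above 1.5 and an FDR no higher than 0.05. The count was 0 of 10 with 17 arrays, where 0% of all 38703 probes were called, and 0 of 10 without the near-identical arrays, where 0.0491% were called. None of the 10 genes had an unadjusted p under 0.05 in limma in either fit (4.66% and 4.68% of all probes had one), and in none of them did the 2 groups of 4 arrays separate (2.64% of all probes). The median log2 difference of the 10 genes was -0.02, beside a median of -1e-04 over all probes. Cldn8 had the largest difference, -0.38 ± 0.34 (SE, 95% CI -1.11 to 0.35, limma adjusted p = 0.956). The most precisely measured genes had narrow intervals around 0, with Cldn7 at 0.08 (95% CI -0.10 to 0.26) and Cldn3 at 0.06 (95% CI -0.15 to 0.27). Cldn4, in contrast, had an interval that reached past 1 on the log2 scale in both directions (-0.02, 95% CI -1.21 to 1.17).

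**Figure D1:**
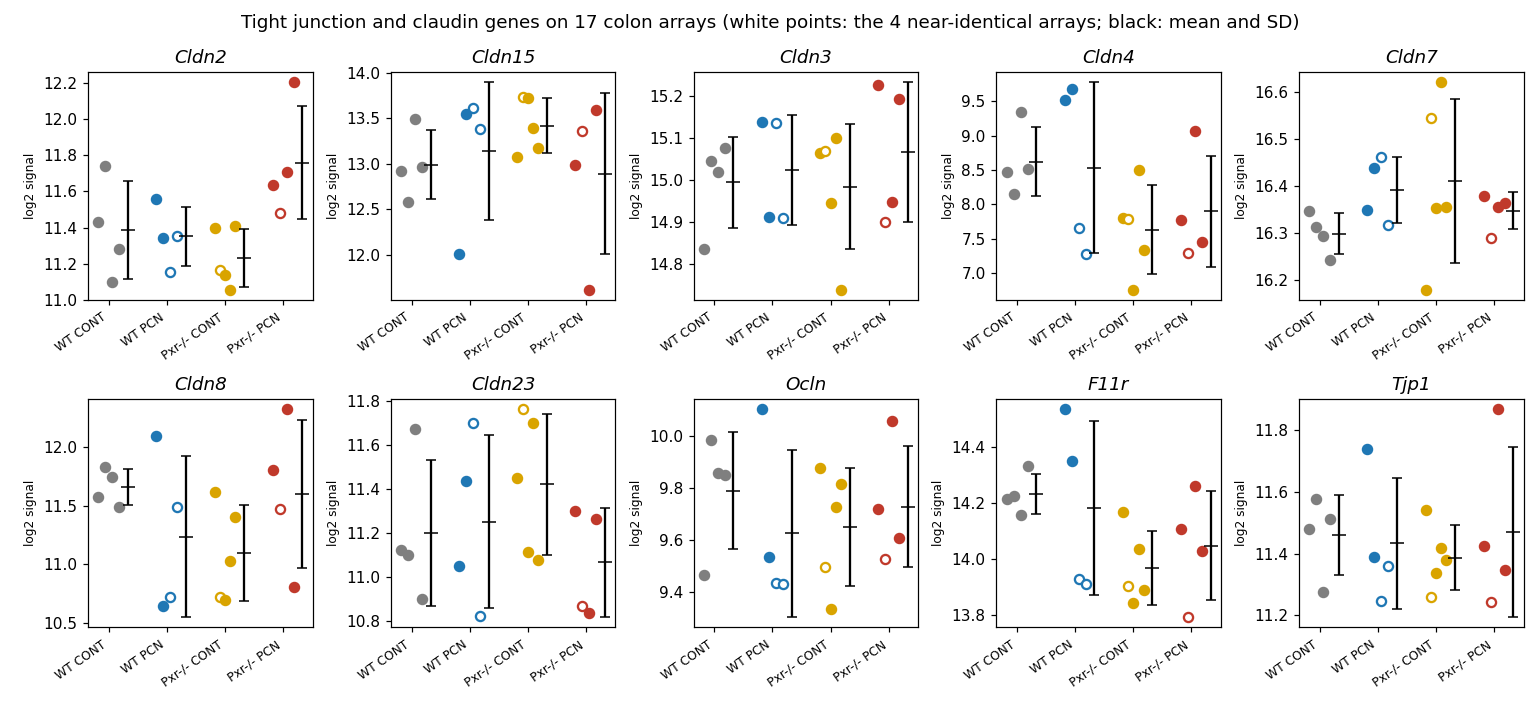
Log2 signal (y axis, a scale of its own in each panel) of the 10 genes on each array of the 4 groups (x axis). Points are arrays, white points are the 4 near-identical arrays, and black marks show the mean and SD of each group; Pxr-/- PCN lies above Pxr-/- CONT for Cldn2, and the groups overlap for each of the other 9 genes in that comparison.

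In Pxr-/- mice, Cldn2 was higher after PCN by 0.53 ± 0.15 on the log2 scale (SE, 95% CI 0.22 to 0.85, 1.45-fold), and its adjusted p of 0.414 in limma did not pass the FDR. Its signal was 11.48, 11.64, 11.71 and 12.20 in the 4 Pxr-/- PCN arrays and 11.06, 11.14, 11.16, 11.40 and 11.41 in the 5 Pxr-/- CONT arrays. Every PCN array was thus above every control array. In WT mice the signal was 11.16, 11.34, 11.35 and 11.56 with PCN and 11.10, 11.28, 11.43 and 11.74 without, and the 2 groups overlapped fully. Of the 10 genes, Cldn2 was the 1 whose groups did not overlap in Pxr-/- mice (2.8% of all probes) and the 1 with an unadjusted p under 0.05 (7.35% of all probes). No member was called (0 of 10, with 0.00517% of all probes called). Without the near-identical arrays the Cldn2 difference was 0.59 ± 0.18 (SE, adjusted p = 0.519 in limma), again with 0 of 10 called where 0.0517% of all probes were, and 1 of 10 with an unadjusted p under 0.05 (7.19% of all probes). Within wash bath 1 the difference was 0.50, and within bath 2 it was 0.59.

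The second Cldn2 probe gave a difference of 0.58 ± 0.12 (SE, 95% CI 0.32 to 0.84, adjusted p = 0.248 in limma). It read 7.71, 7.74, 7.92 and 8.30 with PCN and 7.25, 7.28, 7.28, 7.34 and 7.49 without, so the groups again did not overlap. The 2 probes ranked the PCN arrays differently, since the highest was Pxr-/- PCN 4 on the first probe and Pxr-/- PCN 2 on the second. On the second probe, Pxr-/- PCN 2 was at 8.30 and its near-identical partner WT PCN 4 at 7.54, while on the first probe they were at 11.48 and 11.35. Without the near-identical arrays the second probe gave 0.46 ± 0.12 (SE, adjusted p = 0.432 in limma). Over 15 points, with each near-identical pair averaged, the 2 probes had r = 0.81.

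Pxr-/- PCN 4, the array with the highest Cldn2, also had the lowest mean of 5 genes of position along the colon (Hoxb13, Hoxd13, Hoxd12, Hoxa13 and Hoxd10), at 6.83 against 7.95 to 10.85 on the other arrays. Hoxb13, a homeobox gene of the distal colon, was at 7.53 in this array and between 12.88 and 16.09 on the other 16. Hoxd10, of the same list, went the other way, since it was at 8.03 in this array and only WT PCN 1 and Pxr-/- PCN 3 read higher, at 8.70 and 8.81. Leaving this array out gave 0.38 ± 0.14 (SE, adjusted p = 0.504 in limma) for the first Cldn2 probe and 0.56 ± 0.14 (SE, adjusted p = 0.344) for the second. Smooth muscle markers were lower with PCN in the same comparison, 7 of 7 with a median of -0.45 and 5 with an unadjusted p under 0.05, and their mean per array was 14.85 to 15.51 in Pxr-/- CONT and 14.58 to 15.04 in Pxr-/- PCN. All 7 were well above the background, and their part in the Cldn2 difference was not tested.

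**Figure D2:**
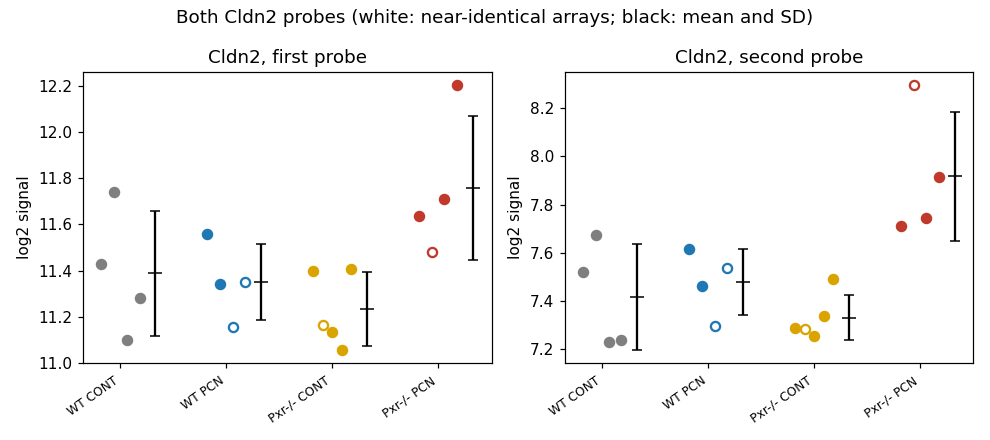
Log2 signal (y axis) of the first and second Cldn2 probe on each array of the 4 groups (x axis), with the mean and SD of each group in black and the near-identical arrays in white. On both probes the 4 Pxr-/- PCN arrays lie above the 5 Pxr-/- CONT arrays, and the WT groups overlap.

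The other 9 genes moved in Pxr-/- mice by -0.53 to 0.52 after PCN, all with overlapping groups. The 2 ends of this range were the pore-forming Cldn15, at -0.53 ± 0.39 (SE, limma adjusted p = 0.832), and the sealing Cldn8, at 0.52 ± 0.32 (SE, limma adjusted p = 0.780). The 95% CI of both included 0. Cldn23 was at -0.34 ± 0.21 (SE) and Cldn4 at 0.29 ± 0.52 (SE), whereas Ocln, F11r, Tjp1, Cldn3 and Cldn7 lay between -0.07 and 0.10.

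The effect of PCN on Cldn2 was larger in Pxr-/- than in WT mice by 0.55 ± 0.22 (SE, 95% CI 0.08 to 1.01), with an adjusted p of 0.848 in limma. The second probe gave 0.54 ± 0.18 (SE, adjusted p = 0.848 in limma), and 0.33 ± 0.18 (SE, adjusted p = 1 in limma) without the near-identical arrays. For no member did the genotypes differ in their response at the FDR used (0 of 10, with 0% of all probes called), and 1 of 10 had an unadjusted p under 0.05 (5.38% of all probes). Without the near-identical arrays the Cldn2 interaction was 0.53 ± 0.27 (SE, adjusted p = 1 in limma), 0 of 10 were called (0.00258% of all probes) and 0 of 10 had an unadjusted p under 0.05 (2.95% of all probes). Cldn8 had a larger interaction, 0.91, but also a larger error (SE 0.47, adjusted p = 0.848 in limma).

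Under corn oil, Cldn4 had the largest difference between the genotypes and F11r the smallest unadjusted p among the 10 genes, both lower in Pxr-/- mice, and neither passed the FDR. Cldn4 read 8.16, 8.48, 8.52 and 9.34 in WT CONT and 6.76, 7.33, 7.78, 7.80 and 8.50 in Pxr-/- CONT. Of the Pxr-/- CONT arrays 1, at 8.50, lay within the WT range. The difference was -1.01 ± 0.52 (SE, 95% CI -2.13 to 0.10, adjusted p = 0.432 in limma). F11r read 14.16, 14.21, 14.22 and 14.33 in WT CONT and 13.84, 13.89, 13.90, 14.03 and 14.17 in Pxr-/- CONT, a difference of -0.27 ± 0.12 (SE, 95% CI -0.54 to -0.01, adjusted p = 0.377 in limma). The highest Pxr-/- CONT array again lay just above the lowest WT array. F11r was the 1 of 10 with an unadjusted p under 0.05, where 12.7% of all probes had one. No member was called with 17 arrays (0 of 10, with 0% of all probes), the groups of no member were free of overlap (5.39% of all probes were), and the median difference of the 10 genes was -0.12 (0.01 over all probes).

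Without the near-identical arrays, Cldn4 was lower in Pxr-/- CONT by 1.02 ± 0.43 (SE, adjusted p = 0.457 in limma) and F11r was at -0.25 ± 0.09 (SE, adjusted p = 0.412), which made 2 of 10 with an unadjusted p under 0.05 (10.1% of all probes) and 0 of 10 called (0% of all probes). The difference kept its direction within both wash baths, at -0.69 and -1.29 for Cldn4 and at -0.28 and -0.26 for F11r. With the slide as a fixed block, Cldn4 was at -0.37 and F11r at -0.18. With all arrays, liver transcripts were also lower in Pxr-/- CONT, 8 of 8 with a median of -1.66. Their means per array were 6.89 to 7.55 in Pxr-/- CONT and 7.64 to 11.38 in WT CONT. Pancreatic transcripts were lower in 8 of 8 (median -1.33) and leukocyte markers in 5 of 6 (median -0.41). The pancreatic mean was high in WT CONT 4 and in Pxr-/- CONT 2 (15.50), and 6.72 to 7.06 on the other arrays of these groups. Endothelial markers were lower in 7 of 7 (median -0.10) and colon position genes in 4 of 5 (median -0.73). Smooth muscle markers were higher in 6 of 7 (median 0.17) and epithelial markers in 4 of 7 (median 0.02). Squamous epithelium markers were lower in 3 of 5 and higher in 2 (median -0.03), with Krt14 of this list at -0.91 ± 0.58 (SE). Their means per array were 7.44 to 8.33 in Pxr-/- CONT and 7.47 to 8.06 in WT CONT. WT CONT 4 had the highest Cldn4 of its group (9.34), the lowest liver mean (7.64), a pancreatic mean of 17.66 and the highest squamous mean of its group (8.06). Pxr-/- CONT 4 had the highest Cldn4 (8.50) and the highest squamous mean (8.33) of its group. The part of these lists in the Cldn4 and F11r differences was not tested.

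Cldn8 and Cldn15, whose differences were larger than that of F11r but less precise, had opposite signs under corn oil too, at -0.58 ± 0.32 (SE, limma adjusted p = 0.462) and 0.43 ± 0.39 (SE, limma adjusted p = 0.655) in Pxr-/- against WT. With the slide as a fixed block the Cldn15 value was -0.05. The second probe of Tjp1, 577 bases from the first, gave -0.35 ± 0.15 (SE, adjusted p = 0.359 in limma) in this comparison, where the first probe gave -0.07 ± 0.13 (SE). The 2 Cldn7 probes had opposite signs here, 0.12 ± 0.08 and -0.24 ± 0.16 (SE), and their r over 15 points was 0.10. The second Cldn7 probe is annotated to another transcript, ENSMUST00000060651.

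Under PCN, Cldn2 was higher in Pxr-/- than in WT mice by 0.38 ± 0.16 (SE, 95% CI 0.04 to 0.72, adjusted p = 1 in limma), and was the 1 of 10 with an unadjusted p under 0.05 (3.28% of all probes). The groups touched, since the lowest Pxr-/- PCN array (11.48) lay below the highest WT PCN array (11.56). On the second probe all 4 Pxr-/- PCN arrays (7.71 to 8.30) were above all 4 WT PCN arrays (7.29 to 7.61), a difference of 0.46 ± 0.13 (SE, adjusted p = 1 in limma). Without the near-identical arrays the first probe gave 0.39 ± 0.22 (SE, adjusted p = 0.742 in limma) and the second 0.26 ± 0.15 (SE, adjusted p = 0.75 in limma), and neither then had an unadjusted p under 0.05. No member was called (0 of 10, with 0% of all probes), and none separated on the probe chosen for it (1.48% of all probes did). Smooth muscle markers were lower in Pxr-/- mice in this comparison as well, 7 of 7 with a median of -0.32 and 3 with an unadjusted p under 0.05, and their mean per array was 14.87 to 15.35 in WT PCN and 14.58 to 15.04 in Pxr-/- PCN. Their part in the Cldn2 difference was not tested.

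Under PCN, removing the near-identical arrays moved Cldn4 more than any other member, and F11r moved the same way by less. Cldn4 read 7.28, 7.66, 9.52 and 9.68 in WT PCN, and the 2 low values were the near-identical arrays. In Pxr-/- PCN it read 7.30, 7.46, 7.78 and 9.06. With the near-identical arrays left out, Cldn4 was lower in Pxr-/- PCN than in WT PCN by 1.48 ± 0.55 (SE, adjusted p = 0.585 in limma), against -0.70 ± 0.56 (SE) with them. F11r read 13.91, 13.93, 14.35 and 14.53 in WT PCN and 13.79, 14.03, 14.11 and 14.26 in Pxr-/- PCN, and its difference moved from -0.16 ± 0.13 to -0.31 ± 0.12 (SE, adjusted p = 0.601 in limma without them). This left 2 arrays of WT PCN and 3 of Pxr-/- PCN, which did not overlap for 3 of 10 members, Cldn2, Cldn4 and F11r (19.1% of all probes did not). Cldn4 and F11r were the 2 of 10 members with an unadjusted p under 0.05 (7.56% of all probes), and 0 of 10 were called (0.0207% of all probes). In the comparison of PCN with corn oil in WT mice, Cldn4 moved from -0.02 to 0.98 ± 0.52 (SE) and F11r from -0.02 to 0.21 ± 0.11 (SE) in the same way, neither of them passing the FDR (limma adjusted p = 1 for both). The 2 remaining WT PCN arrays were 2 of the 3 with the highest liver transcripts, and among the 13 arrays liver transcripts were lower in Pxr-/- PCN than in WT PCN, 8 of 8 with a median of -2.59. Pancreatic transcripts were lower in 8 of 8, with a median of -2.73. This rested on WT PCN 1, with a pancreatic mean of 11.48. The mean of WT PCN 2 (6.77) lay within the range of the Pxr-/- PCN arrays (6.65 to 7.06). Of the markers of squamous epithelium 3 of 5 were lower and 2 higher, with a median of -0.16, and 2 had an unadjusted p under 0.05 in limma. This count was 2 of 8 for liver and 0 of 8 for pancreatic transcripts. After PCN in WT mice, among the 13 arrays, squamous markers were higher in 4 of 5 (median 0.33), with Krt14 of this list at 1.27 ± 0.62 (SE). Of the leukocyte markers 4 of 6 were lower and 2 higher, with a median of -0.11. Smooth muscle markers were lower in 7 of 7, with a median of -0.36. The part of these cell types in the Cldn4 and F11r differences was not tested.

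**Figure D3:**
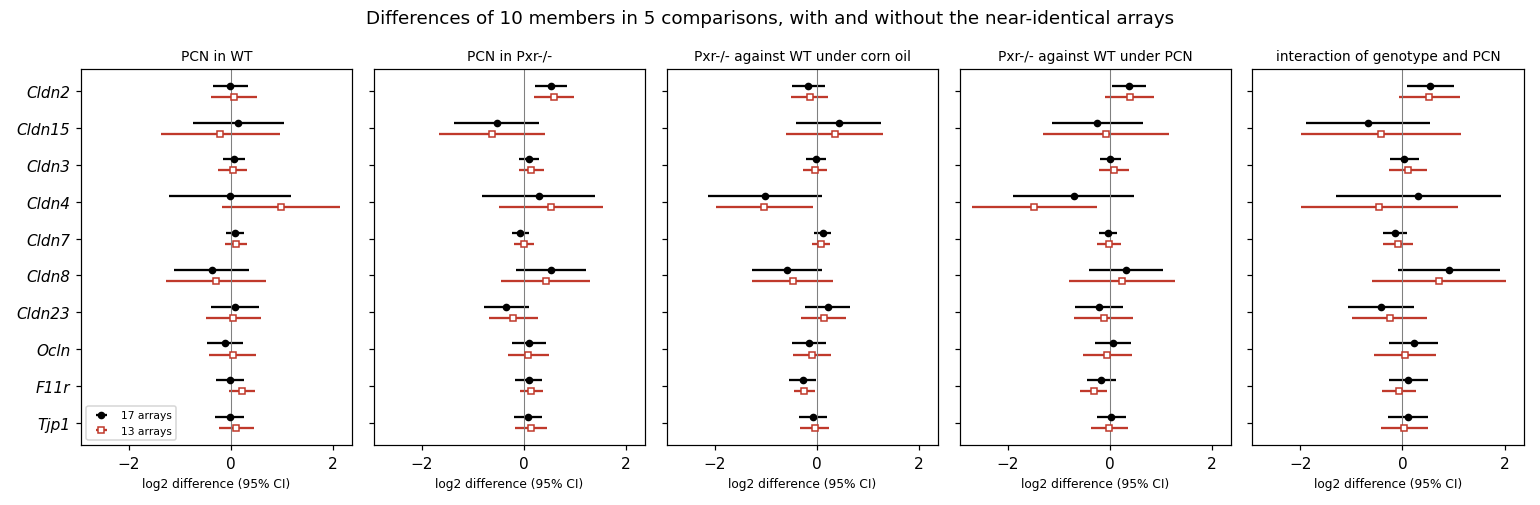
Log2 difference (x axis) with its 95% CI for each of the 10 genes (y axis) in the 5 comparisons, from the fit to 17 arrays (black circles) and to the 13 arrays left without the near-identical ones (red squares). The intervals of Cldn3 and Cldn7 are the narrowest, those of Cldn4, Cldn15 and Cldn8 the widest, and the interval of Cldn2 for PCN in Pxr-/- lies above 0 in both fits.

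The members differed widely in how much they varied among arrays of the same group. The SD within groups was 0.11 for Cldn7 and 0.14 for Cldn3, at the 12.4th and 32.4th percentile of all probes, and their signal spanned 1.36-fold and 1.40-fold over the 17 arrays. Cldn4 (SD 0.83, 98.3rd percentile), Cldn15 (0.61, 96.6th) and Cldn8 (0.51, 94.5th) were among the more variable probes and spanned 7.56-fold, 4.34-fold and 3.19-fold. Cldn23 (0.33), Ocln (0.25), Cldn2 (0.23), F11r (0.19) and Tjp1 (0.19) lay between. The wide intervals of Cldn4, Cldn8 and Cldn15 in the comparisons above come from this spread.

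Cldn15 ran opposite to the sealing claudin Cldn8, the scaffold Tjp1 and occludin across arrays. Cldn15 read 12.58, 12.93, 12.96 and 13.49 in WT CONT, 12.01, 13.38, 13.55 and 13.61 in WT PCN, 13.07, 13.17, 13.40, 13.72 and 13.73 in Pxr-/- CONT, and 11.61, 12.98, 13.36 and 13.60 in Pxr-/- PCN. The 3 lowest arrays, Pxr-/- PCN 3, WT PCN 1 and WT CONT 3, came from 3 different groups. The same 3 arrays had the highest Cldn8, at 12.32, 12.09 and 11.83, and the highest Tjp1, at 11.87, 11.74 and 11.58. They also had the highest Ocln, at 10.06, 10.10 and 9.99. At the other end, Cldn8 was lowest in WT PCN 2, Pxr-/- CONT 3, Pxr-/- CONT 2 and WT PCN 3 (10.64 to 10.72), and these 4 arrays had Cldn15 values between 13.55 and 13.73.

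Over 15 points, with each near-identical pair averaged, Cldn15 and Tjp1 had a Pearson r of -0.95 (Spearman rho -0.88), with a permutation p of 1e-05, which is the smallest that 100000 permutations can give. Of 21071 genes measured on every array, Tjp1 was the 1 with the lowest r with Cldn15. The second Tjp1 probe gave r = -0.62 with Cldn15. Cldn15 and Cldn8 had r = -0.85 (rho -0.86, permutation p = 1e-05), and 0.574% of the 21071 genes had an r with Cldn15 as low. Cldn15 and Ocln had r = -0.77 (rho -0.68, permutation p = 3e-04, with 2.25% of genes as low), and Cldn15 and F11r r = -0.63 (rho -0.65, permutation p = 0.0107, with 6.58% of genes as low). Without the 2 points farthest from the median of Cldn15, r was -0.85 for Tjp1, -0.80 for Cldn8, -0.63 for Ocln and -0.49 for F11r. Within wash baths 1 and 2 (8 points each) it was -0.96 and -0.94 for Tjp1, and -0.93 and -0.79 for Cldn8.

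**Figure D4:**
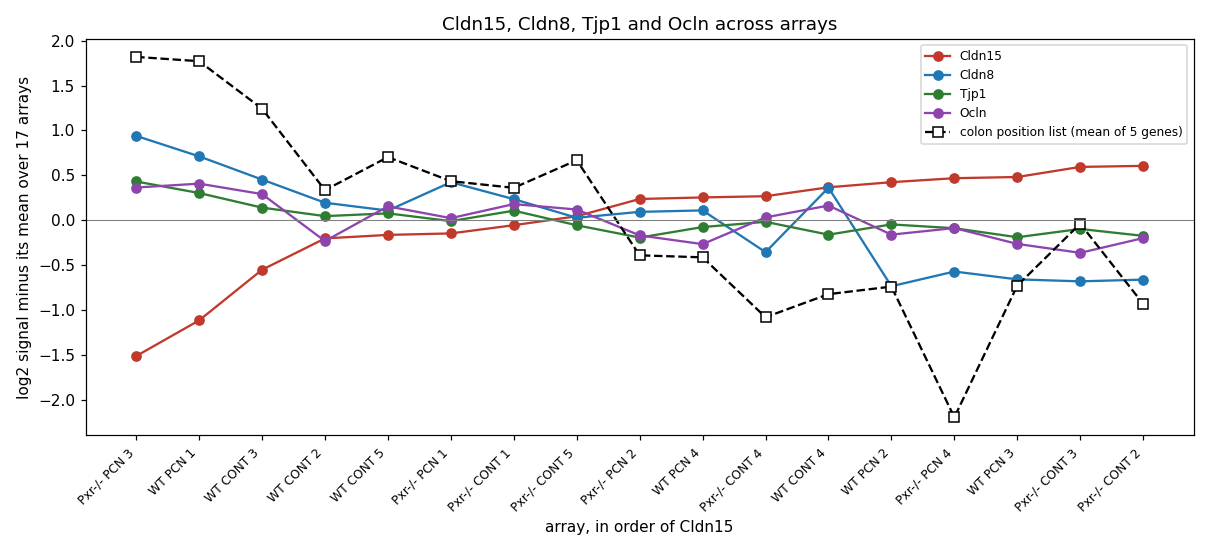
Log2 signal minus its mean over the 17 arrays (y axis) of Cldn15, Cldn8, Tjp1, Ocln and the mean of 5 colon position genes, with arrays along the x axis in order of Cldn15. Cldn15 is lowest in Pxr-/- PCN 3, WT PCN 1 and WT CONT 3, where the other lines are at their highest.

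All 45 pairs of members were compared in this way, and 8 had a Benjamini-Hochberg adjusted permutation p of at most 0.05, 5 positive and 3 negative. The 3 negative pairs were Cldn15 with Tjp1 (adjusted p = 0.000225), Cldn8 (0.000225) and Ocln (0.00337). The positive pairs were Cldn4 with F11r (r = 0.84, rho 0.89, permutation p = 1e-04, adjusted 0.0015), Cldn8 with Ocln (r = 0.78), Tjp1 with Ocln (r = 0.74), Cldn8 with Tjp1 (r = 0.72) and Tjp1 with F11r (r = 0.68, adjusted permutation p = 0.0235). For Cldn4 and F11r, r was 0.79 without the 2 most distant points, 0.91 and 0.79 within the baths, and 0.51 among the 13 arrays after the mean of each group was removed. The corresponding value for Cldn15 and Tjp1 was -0.96. Over the 15 points Cldn2 had no relation of this strength with another member, but its r depended on which arrays were used. With Tjp1 it was 0.36, and 0.73 without the 2 points farthest from the median of Cldn2. Within wash baths 1 and 2 it was 0.75 and 0.14. With Cldn8 these values were 0.26, 0.69, 0.86 and -0.22, and with Cldn15 r was -0.83 and -0.05 within the baths. Of these arrays some share a slide, and all were scaled together, so the points are not free of shared technical variation.

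The order of arrays by Cldn15 followed the mean of the genes of position along the colon. The mean of the 5 position genes was 10.85, 10.80 and 10.27 in the 3 arrays with the lowest Cldn15, and 6.83 to 9.73 in the others. Hoxa13, 1 of the 5, did not stand out in these 3 arrays, at 9.48, 9.48 and 9.82. It was highest in Pxr-/- CONT 3, at 9.88. For the mean of the list the relations were as follows. Its r over 15 points was -0.85 with Cldn15 (rho -0.85, permutation p = 1e-05, adjusted 1e-04 over the 10 members), 0.80 with Tjp1 (rho 0.78, permutation p = 0.00018), 0.77 with Cldn8 (rho 0.72, permutation p = 0.00078), 0.63 with Ocln (rho 0.62, permutation p = 0.012) and -0.60 with Cldn23 (rho -0.71, permutation p = 0.0178). The adjusted permutation p was 0.03 for Ocln and 0.0356 for Cldn23. Within wash baths 1 and 2, r was -0.90 and -0.87 for Cldn15. Without the 2 points farthest from the median of the position list, r was -0.88 for Cldn15, 0.83 for Tjp1, 0.68 for Cldn8, 0.61 for Ocln and -0.66 for Cldn23. With Cldn2, r was 0.08 over 15 points (rho 0.44) and 0.76 without the 2 farthest points. Within wash baths 1 and 2 it was 0.87 and -0.33, so the r with Cldn2 depended on which arrays were used. What part the position of the sampled colon has in these relations was not tested.

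**Figure D5:**
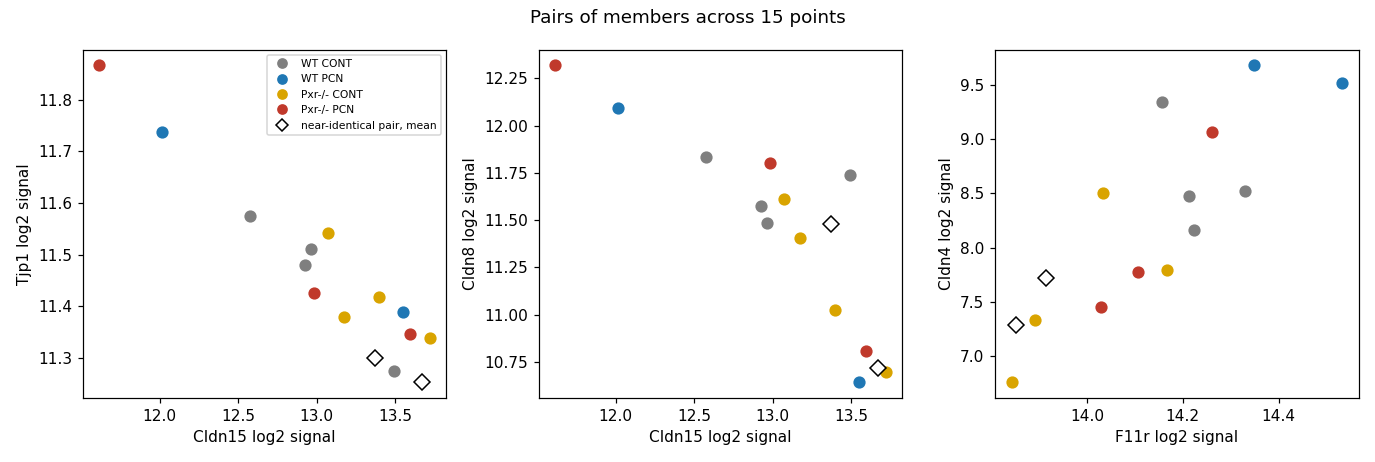
Log2 signals of Tjp1 and Cldn8 against Cldn15, and of Cldn4 against F11r, over 15 points coloured by group, with white diamonds for the mean of each near-identical pair. Tjp1 and Cldn8 fall as Cldn15 rises, Cldn4 rises with F11r, and the groups are mixed along the first 2 plots.

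The genes whose signal was most like that of each member over the 15 points were described by r alone. For Cldn15 they were Apol10b (r = 0.96), Ffar2, a receptor for short-chain fatty acids (0.96), and Pcsk5, a proprotein convertase (0.96). For Tjp1 they were Gcnt1 (0.92), a glycosyltransferase of mucin-type glycans, Magi3 (0.92), itself a junctional scaffold, and Rhpn2 (0.91). Cldn2 was nearest to Pbld2 (0.90), Fabp6, the bile acid-binding protein of the ileum (0.88), and 0610005C13Rik (0.88). F11r was nearest to Dab2 (0.93), Rab31 (0.89) and Ctsl, cathepsin L (0.88), and Cldn4 to Cdc42bpb (0.86), Cd36 (0.86) and a transcript named by accession. Cldn8 and Ocln shared a neighbour, Tango2, at 0.89 and 0.88. The nearest genes of Cldn3 (Zfp143, 0.84), Cldn7 (an unnamed transcript, 0.87) and Cldn23 (4631405J19Rik, 0.88) had lower values than those of Cldn15.

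Genes of other junction proteins, from lists of 16 further claudins, 10 membrane proteins, 20 scaffold and polarity proteins and 14 proteins of adherens junctions and desmosomes, gave 55 genes that could be tested. Cldn6, Cldn13, Cldn16 and Cldn19 were too dim, and Pals1 was not found under that name (Mpp5, its other name, was). None of the 55 was called in any of the 5 comparisons, with or without the near-identical arrays, beside the shares of all probes called given above. With 17 arrays the numbers with an unadjusted p under 0.05 in limma were 4 for PCN in WT mice (4.66% of all probes had one), 4 for PCN in Pxr-/- mice (7.35% of all probes), 7 for the genotypes under corn oil (12.7%), 1 for the genotypes under PCN (3.28%) and 5 for the interaction (5.38%), and their median differences lay between -0.01 and 0.03.

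After PCN in WT mice the largest differences among them were those of Cldn20 (0.44 ± 0.27, SE) and Cldn5, the claudin of blood vessels (-0.34 ± 0.15, SE). In Pxr-/- mice they were those of Cldn22 (-0.75 ± 0.25, SE, adjusted p = 0.520 in limma) and Cldn14 (0.53 ± 0.50, SE). Between genotypes under PCN they were those of Cldn22 (-0.52 ± 0.27, SE) and Cldn10 (-0.39 ± 0.36, SE), and for the interaction those of Cldn20 (-0.94 ± 0.37, SE) and Cldn14 (0.87 ± 0.72, SE). The adjusted p of all of these was 0.520 or higher. Without the near-identical arrays the Cldn20 difference after PCN in WT mice was -0.01 ± 0.21 (SE), since WT PCN 3 and 4 read 8.23 and 8.04 and the other WT PCN arrays 7.01 and 7.47, and that of Cldn5 was -0.16 ± 0.18 (SE). Among these 13 arrays Ildr2, a protein of tricellular junctions, had the largest difference, 0.70 ± 0.35 (SE). In Pxr-/- mice Cldn22 was then at -0.80 ± 0.31 and Cldn14 at 0.62 ± 0.61 (SE). Between genotypes under PCN, Cldn22 was at -0.54 ± 0.37 and Cldn10 at -0.59 ± 0.52 (SE), with Ildr2 again the largest at -0.93 ± 0.37 (SE), and the interaction was -0.68 ± 0.28 for Cldn20 and 0.53 ± 0.91 for Cldn14 (SE).

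Between genotypes under corn oil the largest were Cldn20, higher in Pxr-/- by 0.75 ± 0.25 (SE, adjusted p = 0.279 in limma), and Cldn14 (-0.74 ± 0.50, SE). Cldn20 read 7.84, 7.84, 7.97, 8.14 and 8.22 in Pxr-/- CONT and 6.88, 7.16, 7.44 and 7.51 in WT CONT, without overlap. The smallest adjusted p in this comparison was that of Cldn5 (-0.49 ± 0.14, SE, adjusted p = 0.245 in limma), at 9.27, 9.31, 9.34, 9.49 and 9.60 in Pxr-/- CONT and at 9.66, 9.76, 9.97 and 10.20 in WT CONT, again without overlap. In this comparison the groups did not overlap for 5.39% of all probes. Of the 12 further claudins tested, Cldn20 was the 1 with all values higher and Cldn5 the 1 with all values lower. No gene of the other junction lists separated. Among the 13 arrays Cldn20 was at 0.72 ± 0.17, Cldn14 at -0.65 ± 0.56 and Cldn5 at -0.46 ± 0.15 (SE). Endothelial markers were lower in the same comparison, 7 of 7 with a median of -0.10, and their mean per array was 8.56 to 8.73 in Pxr-/- CONT and 8.75 to 8.81 in WT CONT. All 7 were well above the background, and their part in the Cldn5 difference was not tested.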

How the data were processed

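The members and gene lists were chosen with earlier results of these data known. The authors labelled colon RNA with Cy3, hybridized it to 1-colour Agilent arrays and deposited, per the file headers, Feature Extraction 10.10.1.1 output with the intensity of each spot, not normalized between arrays. The deposited log2 values of 36695 probes, corrected by the authors for the wash bath, chose the probe of each gene and served as an alternative. The article reports liver arrays of the same design.

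The median intensity of 59305 spots was taken to log2, outlier spots were left out, arrays were quantile-normalized (the article's CrossNorm could not be repeated from its description) and spots of a probe were averaged, giving 56605 probes. The 38703 probes that the scanner marked as well above background on 4 or more of the 17 arrays were fitted with limma 3.58.1 in R 4.3.3, with terms for the 4 groups and the wash bath, and Benjamini-Hochberg adjustment over all of them. A call needed a fold change above 1.5 and an FDR no higher than 0.05. The 17 arrays lay on 8 slides and in 2 wash baths, 61.0% to 69.7% of probes were well above the background, the median background was 20 to 28 units, and 0 spots were saturated. The number of arrays limits the precision. Group and replicate came from the labels, which do not say that each array is a separate mouse, so p-values measure the spread between arrays. The genes named were the 10 members, for other junction genes any called gene or else the 2 with the largest difference in each comparison (Cldn5 under corn oil was added after its values were seen), and the 3 genes with the highest r with each member. Correlations used two-sided tests of 100000 permutations. The fit was tested on simulated data. Probe positions are those of the array files (mm9). A genome of that build was not used here, so exon positions are not given. The result of 1 gene of the colon position list is not reported here, and the list was used without it.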

Additional observations from a re-analysis of the deposited data

Results flagged for a closer look

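In WT PCN, the lowest Cldn15 value (12.01, replicate 1) lay far from the nearest of the other 3 arrays relative to the range of the group, by Dixon's criterion, and so did the highest Ocln value (10.10, also replicate 1). These were 2 of 40 groups of values tested, and chance flags about 1 in 20 groups. The same array had a high mean of colon position genes (10.80) and of liver transcripts (9.31).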

How the results depend on the processing

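No member was called in any of the 5 comparisons under any alternative run: other scalings (the authors' log2 values, the processed signal, normexp), other filters on dim probes, fits that drop the bath term or put in the slide, the replicate block, array weights or a robust variance, fits to 2 groups, fits that leave out single arrays or the doubtful sets of arrays, the second probe, and looser thresholds. The other junction genes gave 0 calls throughout, except 1 with array weights under corn oil (Cldn20, 0.82, limma adjusted p = 0.0443, where 521 of 38703 probes were called). Of 1790 member values, 88 changed sign, none of them called, and 4 of these had been over 1 SE from 0: with the slide as a fixed block Cldn15 (-0.05) and Ocln (0.05) under corn oil, and on the second probe Cldn7 under corn oil (-0.24) and in the interaction (0.22). Cldn2 for PCN in Pxr-/- ranged from 0.38 (without Pxr-/- PCN 4) to 0.61 on its first probe, with unadjusted p from 0.000774 to 0.0164. Replicate numbers did not pair the arrays (correlation of same-numbered deviations from -0.33 to 0.45), and the replicate block gave 0 calls among members. The r of Cldn15 and Tjp1 kept its sign in every setting in which it was computed, and the weakest was that on the second Tjp1 probe (-0.62). The low number of arrays and, for Cldn4, Cldn8 and Cldn15, their spread limit what could be detected. Both Cldn2 probes without Pxr-/- PCN 4 were fitted after seeing the data.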
